A study of Mus musculus with 2 samples.

Results

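The 10 genes described here encode parts of the elastic fibre and were chosen by name: Eln, Fbn1, Fbn2, Fbln1, Fbln2, Fbln5, Lox, Loxl1, Mfap4 and Mfap5. A probe belonged to one of them when the array file gave that gene name, or when its transcript accession carries that symbol in RefSeq. The array held 13 such probes, 12 of which were well above background, so all 10 genes were measured in both channels, among 21171 genes detected in at least 1 channel. The material was the lung lobes of 2 male littermate embryos at E16.5 on an Sv129/CD-1 hybrid background, 1 heterozygous (Foxj1 +/–) and 1 homozygous (Foxj1 –/–) for the Foxj1lacZ allele. Both embryos carried that allele, no wild-type lung was measured, and tissue outside the lobes had been trimmed away. Titles name lung lobes and source names name lung epithelium, and markers of epithelium (15 of 15 listed) and of mesenchyme (20 of 20 listed) were both detected. The 2 RNAs shared 1 two-colour array, the heterozygous in Cy3 and the homozygous in Cy5, with no dye swap. Genotype, dye and the individual embryo therefore cannot be told apart, and no difference below has a replicate check or a test.

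An elastic fibre has a core of cross-linked elastin laid on a scaffold of microfibrils. Fibrillins build the microfibrils, fibulins tie tropoelastin to them and to the cell surface, and lysyl oxidases form the cross-links that make the core insoluble. In the lung these fibres give the airways, vessels and later the alveolar walls their recoil, and mesenchymal, smooth muscle and vascular cells are known to secrete them. Foxj1 is known as a transcription factor of motile ciliated cells, and the series asks what acts downstream of it in the fetal airway.

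Ratios are log2 of the homozygous over the heterozygous channel, and levels are log2 of the normalized intensity of a channel. After ± stands the error of a log ratio by the scanner software, taken as the median of a gene's probes. It belongs to the software's own log ratio and was 0.20 for Fbln1 and Loxl1, against an SD of 0.058 between repeated spots of a probe. It is therefore not a measured spread between spots, and it does not cover differences between embryos. The brightness of different probes is not comparable, so levels are compared only between the channels of a probe. A summed level adds the linear levels of a list's genes in a channel, follows the brightest of them, and is likewise set only against the same genes in the other channel. Foxj1 itself had levels of 9.53 and 7.61, a ratio of −1.92 ± 0.30, but whether its probe lies in the part removed by the allele was not settled here. In whole lobes, fewer cells of a type and less RNA per cell cannot be told apart.

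The probes stand for the genes in what follows, so the stretches that were read are shown for the lowest gene, for elastin and for the genes with 2 measured probes. Each is 30 of the probe's 60 bases, 5′ to 3′ as in the array file, and capitals mark a polyadenylation hexamer.
Fbln2, bases 31 to 60: ccttcatccactgtgttcctcaATTAAAaa
Eln, bases 31 to 60: acatgatccctctctctttggttcccctgt
Fbn1 probe 1, bases 31 to 60: attaagtgtgtgtacactgtaacgtgctat
Fbn1 probe 2, bases 1 to 30: ccagagaccaaataATTAAAtgaaaaagca
Fbln1 probe 1, bases 31 to 60: ggcattgctaaggaccaattgaaggagttt
Fbln1 probe 2, bases 31 to 60: aagttgatggctgctgtagagtggcacata

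The hexamers AATAAA and ATTAAA, which can mark the end of a transcript, were searched in whole probes on both strands. As written, 3 of the 13 probes held one, against 7.49% of all 41174 probes, and on the reverse strand 1 of 13 did, against 7.002%. On the mm8 build of the array file, the Fbln2 probe lies at chr6:91237628-91237687 on the plus strand and the Eln probe at chr5:134987886-134987945 on the minus strand. The Fbn1 probes lie at chr2:124992432-124992491 and chr2:124992959-124993018, 467 bases apart. The Fbln1 probes lie at chr15:85113190-85113250 and chr15:85113334-85113393, 83 bases apart. The exon or other transcript part that each covers was not determined here, since no annotation of that build was used.

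Across the 10 genes, 9 had a ratio below 0, and their median was −0.36, against −0.0027 for all detected genes. Of all detected genes, 50.4% had a ratio below 0. The members ranged from −1.49 (Fbln2) to 0.05 (Loxl1). Past 2-fold, Fbln2 alone among the members was lower, as 1.88% of all genes were, and none was higher, as 0.576% of all genes were. Past 1.5-fold, Fbln2 and Eln were lower, as were 5.87% of all genes. Without the loess step the median was 0.10, where that of all genes was 0.22, and 4 of the 10 lay below 0, against 37.0% of all genes. No member was 1.5-fold higher, against 2.1% of all genes. Without loess 3 of the 10 were, against 22.7% of all genes. With the scanner software's log ratio and the series matrix, 8 members lay below 0, since Fbln1 stood at 0.03. A ratio exceeded its scanner error for 6 of the 10, namely Fbln2, Eln, Fbn2, Fbn1, Mfap5 and Lox, as it did, in either direction, for 34.9% of all genes.

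**Figure D1:**
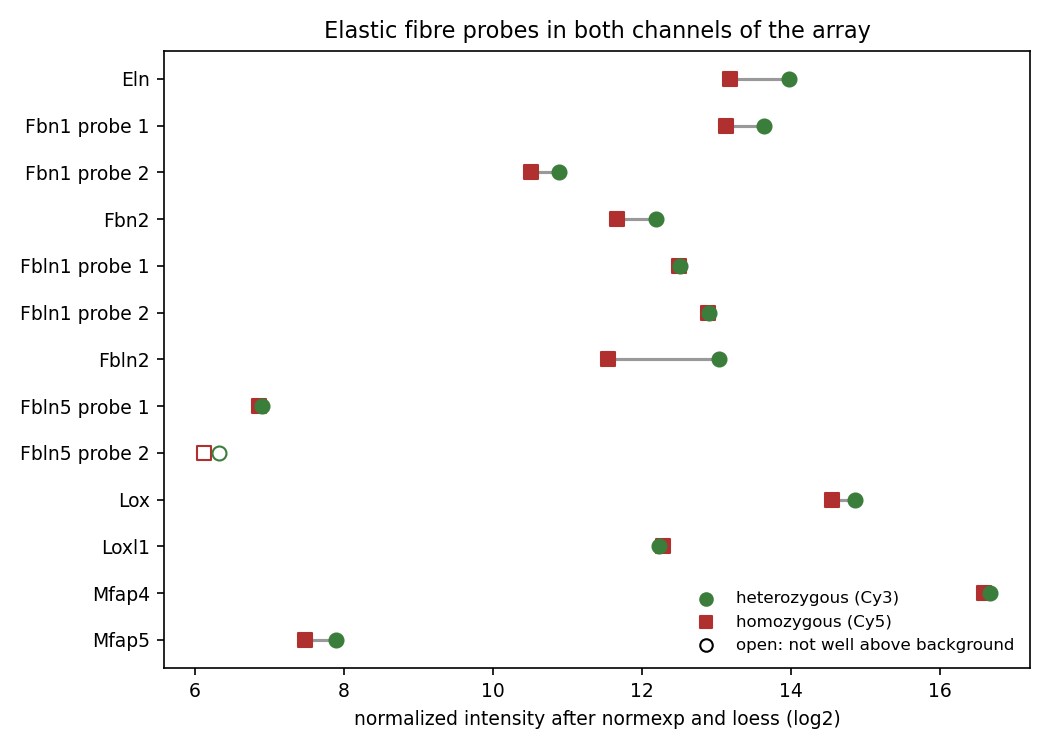
Normalized log2 intensity (horizontal axis) of each of the 13 elastic fibre probes in the heterozygous (green circle) and homozygous (red square) channel, with open symbols for the probe not well above background. The widest gap is that of Fbln2, from 13.03 to 11.54, while the symbols of both Fbln1 probes nearly coincide.

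The size of every ratio rests on the correction for the brighter red channel. Before it, mean red brightness was above green for 11 of the 12 measured probes, Fbln2 being the exception. The loess curve took between 1.01 and 1.43 off the log2 ratio of the 8 bright members, 0.45 off that of Mfap5 and 0.19 off that of Fbln5. When ratios were centred on the array median in place of loess, the median of all genes stood 0.22 higher than with loess. Counted from that median, 6 members then lay below 0 and 4 above, and the median of the 10 was −0.12. Fbln2 remained at least 2-fold lower on that count, at −1.12. Mfap5 (−0.61) and Fbln5 (−0.51) came next and Eln stood at −0.33, so that Mfap5 and not Eln joined Fbln2 past 1.5-fold. Fbn2 (−0.17) and Fbn1 (−0.08) came close to 0, and Fbln1 (0.38), Lox (0.26), Loxl1 (0.42) and Mfap4 (0.69) lay above it. The directions given below for Lox and Mfap4 thus hold only with a correction that depends on intensity, and Fbln1 lay within its error of 0 with loess.

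**Figure D2:**
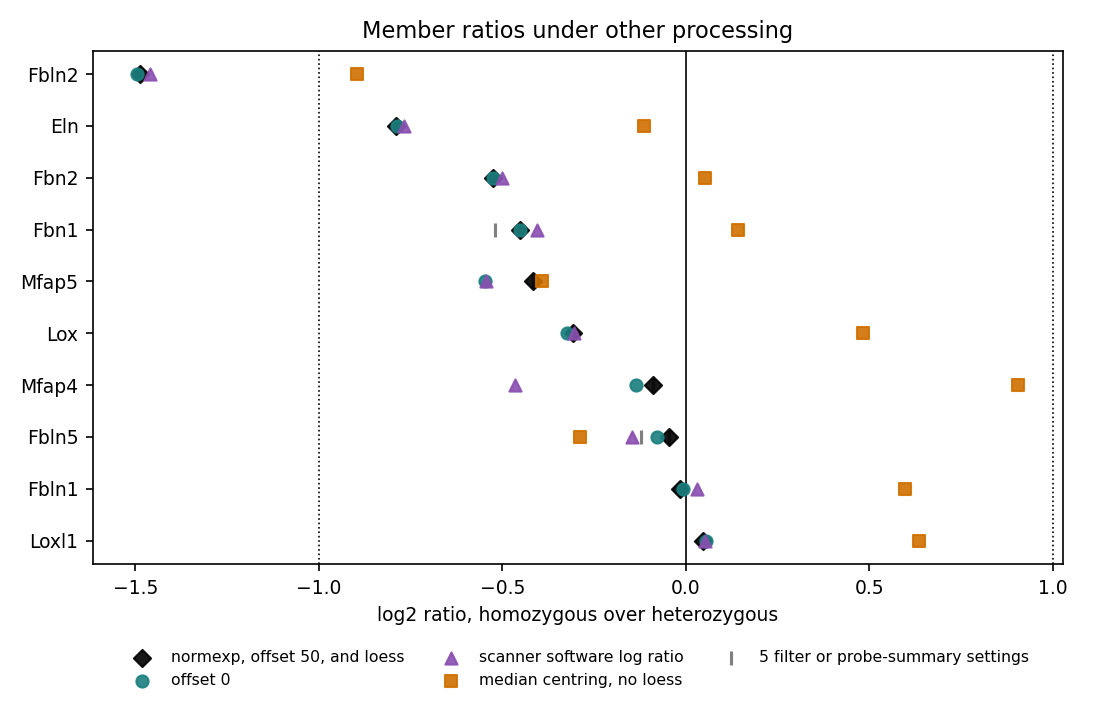
Log2 ratio (horizontal axis) of each elastic fibre gene with normexp and loess (black diamonds), an offset of 0 (teal circles), the scanner software's log ratio (purple triangles), median centring (orange squares) and 5 filter or probe-summary settings (grey ticks). The orange squares lie clearly to the right of the diamonds except for Mfap5 and Fbln5, and those of Fbn1, Fbn2, Fbln1, Lox, Loxl1 and Mfap4 lie above 0. With median centring the median of all genes was 0.22.

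Elastin, the rubber-like core protein, was the second lowest member with loess and the 4th lowest with median centring (−0.11). Its single probe had a mean brightness of 10954 in the heterozygous and 13635 in the homozygous channel, over local backgrounds of 47 and 56. After normalization the levels were 13.97 and 13.18, so that Eln was 1.73-fold lower in the homozygous channel (−0.79 ± 0.22). Of all detected genes, 3.37% had a lower ratio. The scanner software's own ratio was −0.77.

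The fibrillins, large glycoproteins that polymerise into the microfibril, had similar ratios. Fbn1, the main fibrillin after birth, had levels of 13.64 and 13.12 at its first probe and 10.89 and 10.51 at its second. The ratios of these probes, −0.52 and −0.38, differed by 0.14, less than the SD of 0.27 between probes of a gene over 7144 genes. Together they gave Fbn1 a ratio of −0.45 ± 0.21, or 1.37-fold lower. Fbn2, the fibrillin best known from developing tissue, had levels of 12.19 and 11.66 and a ratio of −0.52 ± 0.21. The fibrillins differed from each other by 0.07, with a combined scanner error of 0.29. A further probe, which the array file describes by a clone with fibrillin 2 as product and which the naming rule does not take in, stood at −0.31 ± 0.25. Another of that kind for fibrillin 1 was not well above background in either channel.

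The microfibril-associated proteins differed in brightness and in ratio. Mfap5 (also called MAGP-2), a small protein bound to fibrillin, was dim, with a mean brightness of 224 in the heterozygous and 225 in the homozygous channel over backgrounds of 44 and 57. Its levels of 7.90 and 7.49 gave a ratio of −0.42 ± 0.23. With an offset of 0 the ratio was −0.55, and with the scanner software's ratio −0.54. Mfap4, a fibrinogen-related protein of elastic fibres, was far brighter, with a mean brightness of 63992 and 161611, and neither channel was marked saturated. Its levels of 16.68 and 16.59 differed by −0.09 ± 0.21 with loess, by −0.47 with the scanner software's ratio and by 0.91 with median centring. Mfap4 is the member whose ratio depended most on the correction for the brighter red channel. Above a mean log2 intensity of 16, where it lies, the 234 detected genes had a median ratio of 0.53 even after loess, and 14 of them were lower than Mfap4.

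**Figure D3:**
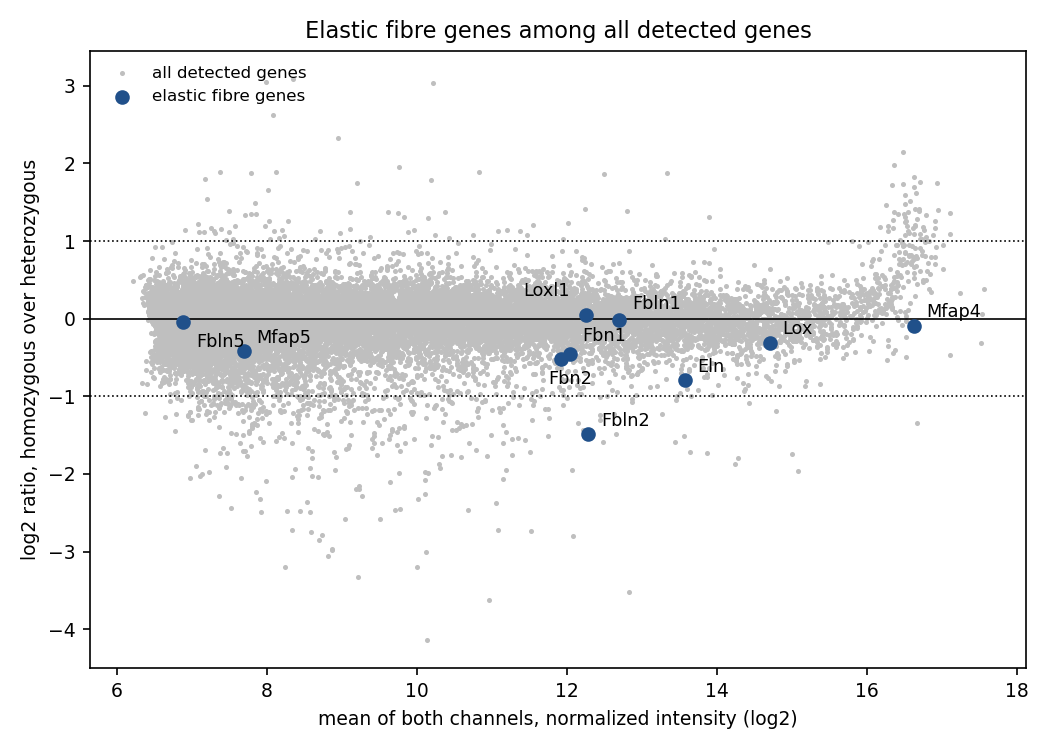
Log2 ratio (vertical axis) against the mean log2 intensity of both channels (horizontal axis) for all detected genes (grey) and the 10 elastic fibre genes (blue), with dotted lines at 2-fold. Fbln2 lies below the lower dotted line and Eln between it and 0, and Mfap4 lies under the grey points, which bend upwards above an intensity of 16.

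The fibulins, which bridge elastin, microfibrils and basement membrane, did not share a ratio. Fbln2, a long fibulin known to bind tropoelastin and fibrillin, had a mean brightness of 5892 in the heterozygous and 4263 in the homozygous channel. Its levels of 13.03 and 11.54 made it 2.80-fold lower in the homozygous channel (−1.49 ± 0.24). Of all detected genes, 0.619% had a lower ratio. Over the 9 other settings tried, its ratio ran from −1.49 to −0.90 and was at most −1 in 8, the exception being median centring. The filter and probe-summary settings left this single-probe gene at its main value, and the series matrix repeated the scanner software's ratio (−1.46). Those settings are therefore not separate checks. The ratio of Fbln2 rests on 1 spot of 1 probe.

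Fbln1, the other long fibulin of the list, had levels of 12.51 and 12.50 at its first probe and 12.90 and 12.88 at its second. Its ratio was −0.01 ± 0.20, and its probes, −0.01 and −0.02, agreed within 0.0076. The ratio of Fbln2 minus that of Fbln1 was −1.47, a difference with a combined scanner error of 0.32 and no replicate check. Fbln5, a short fibulin needed for elastic fibre assembly in lung and skin, was barely above background. Its measured probe had a mean brightness of 136 in the heterozygous and 138 in the homozygous channel, and the other probe, at 99.2 and 81.7, was not well above background. The levels of 6.91 and 6.86 gave −0.05 ± 0.33, and the offset of 50 added to both channels pulls such dim ratios towards 0. With an offset of 0 and with the scanner software's ratio it remained within that error of 0.

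The lysyl oxidases are copper enzymes that cross-link elastin and collagen. Lox, the founding member, had levels of 14.86 and 14.56 and a ratio of −0.31 ± 0.21, or 1.24-fold lower. Loxl1, the family member known for maintaining elastin, had levels of 12.23 and 12.28 and a ratio of 0.05 ± 0.20. The enzymes differed by −0.35 (Lox minus Loxl1), with a combined scanner error of 0.29. Lox changed sign, to 0.48, with median centring. It remained below Loxl1, at 0.64, but the gap was narrower than with loess and lay within that combined error.

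**Figure D4:**
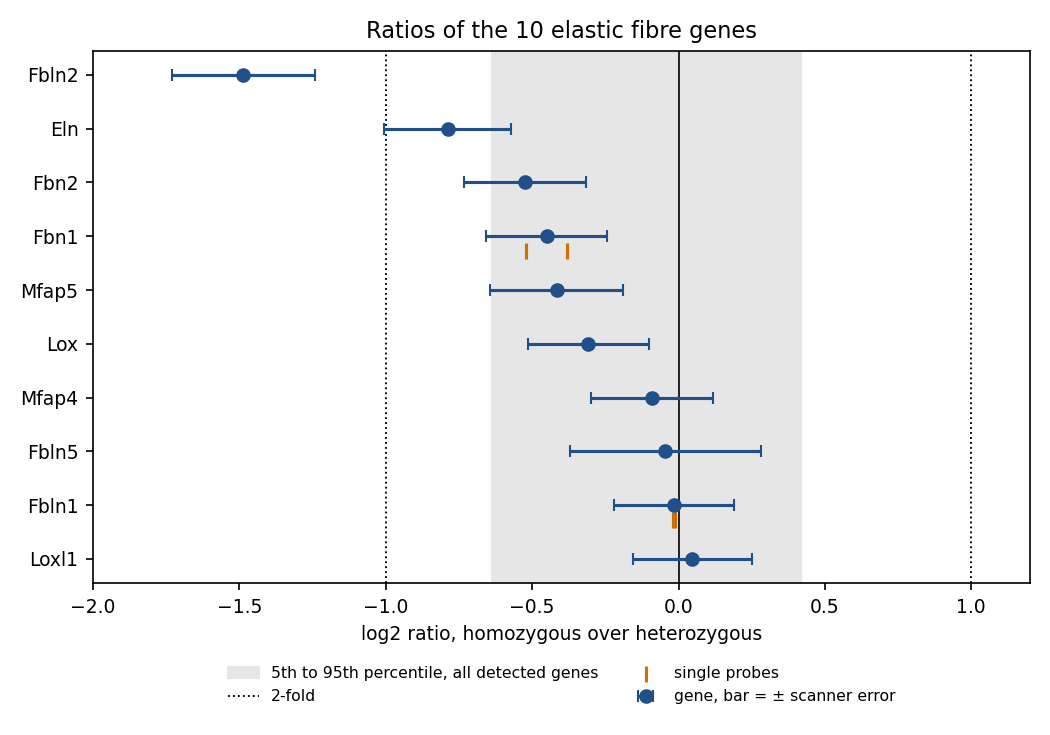
Log2 ratio (horizontal axis) of each elastic fibre gene with loess, with bars of 1 scanner error, ticks for the single probes of Fbn1 and Fbln1, a grey band for the 5th to 95th percentile of all detected genes (−0.64 to 0.42) and dotted lines at 2-fold. Fbln2 and Eln lie left of the band and the other 8 genes within it. Without loess Fbn1, Fbn2, Fbln1, Lox and Mfap4 lie above 0. Counted from the median of all genes without loess (0.22), Fbn1 (−0.08) and Fbn2 (−0.17) remain below 0.

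Other genes of fibre assembly were read from 6 lists by role, whose medians lay between −0.11 and −0.03 with loess and between 0.02 and 0.17 with median centring relative to all genes. Of 29 further microfibril and fibulin genes, the median ratio was −0.03 and 16 lay below 0. Past 1.5-fold, 3 were lower, against 5.87% of all genes, and 1 was higher, against 2.1% of all genes. Ltbp2, a fibrillin-like binder of fibulin-5, had the lowest ratio (−0.95 ± 0.22), from levels of 13.14 and 12.19. Adamtsl2, a secreted microfibril binder, followed at −0.94 ± 0.23 and Adamtsl3 at −0.59 ± 0.22. At the other end stood Mmrn1, a multimerin of the emilin family found in platelets and endothelium (0.76 ± 0.22), Emilin2 (0.46 ± 0.21) and Emilin3 (0.28 ± 0.34). The short fibulins outside the 10 genes, named after their values were seen, did not share a ratio. They stood at −0.56 ± 0.21 for Efemp1, −0.39 ± 0.21 for Efemp2 and −0.03 ± 0.20 for Fbln7. With median centring and relative to all genes, Ltbp2 was at −0.56, Adamtsl2 at −0.84, Efemp1 at −0.21, Efemp2 at 0.10 and Fbln7 at 0.27.

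Among 12 detected genes for other lysyl oxidases, tropoelastin chaperoning, matrix-processing proteases and copper supply, 8 were below 0, with a median of −0.09. The lowest were Pcolce2, an enhancer of procollagen processing (−0.70 ± 0.21), the related Pcolce (−0.30 ± 0.21) and Fkbp10, a chaperone for tropoelastin and collagen (−0.28 ± 0.21). Loxl3 (0.36 ± 0.27), the protease Bmp1 (0.04 ± 0.20) and the copper carrier Atox1 (0.01 ± 0.20) were highest among those measured in both channels. Pcolce2 alone passed 1.5-fold, and with median centring it did not (−0.16, or −0.38 relative to all genes).

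Receptors for elastin or microfibrils had a median of −0.09 over 13 genes, 9 of them below 0. Itgb3, the beta chain of the vitronectin receptor, was at least 2-fold lower (−1.10 ± 0.23), although its probes stood at −1.44 and −0.75. It was not 2-fold lower at its brighter probe, nor with median centring (−0.63, or −0.85 relative to all genes). Lgals3, a galactose-binding lectin, was at −0.97 ± 0.22 and Itgb8 at −0.43 ± 0.28. Glb1, whose splice form is the elastin-binding protein (0.16 ± 0.21), Itga5 (0.10 ± 0.21) and Itga9 (0.08 ± 0.21) were highest. The probes of Glb1 ran from −0.19 to 0.47, those of Itga9 from −0.20 to 0.35 and those of Itgb8 from −0.78 to −0.08.

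Signals known to act on elastin production had a median of −0.11 over 21 genes, 13 of them below 0. Fgf18, a growth factor of the lung mesenchyme, had levels of 13.42 and 12.43 and a ratio of −0.99 ± 0.22. The transcription factors Klf4 (−0.55 ± 0.21) and Mef2c (−0.50 ± 0.21) came next. Fgfr3 (0.28 ± 0.21), Pdgfb (0.22 ± 0.22) and Smad3 (0.16 ± 0.21) were highest, and Fgf18 alone passed 1.5-fold. With median centring Fgf18 was at −0.36, or −0.59 relative to all genes.

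Elastin-degrading enzymes had a median of −0.05 over 10 detected genes, and the macrophage elastase Mmp12 and the neutrophil elastase Elane were not well above background. The pancreatic-type elastase Cela1 was lowest (−0.77 ± 0.22), before the gelatinase Mmp2 (−0.37 ± 0.21) and the membrane protease Mmp14 (−0.36 ± 0.21). Ctsk, the elastinolytic cathepsin K, was highest (0.92 ± 0.27), followed by Prtn3 (0.21 ± 0.24) and Mmp9 (0.18 ± 0.42). Ctsk was dim, with levels of 7.22 and 8.14. Its ratio ran from 0.92 to 1.64, past 2-fold, over the alternatives other than median centring. With median centring relative to all genes it was 0.72. Inhibitors of these or other proteases had a median of −0.09 over 13 genes, of which 2 were at least 2-fold lower, against 1.88% of all genes. Timp3, the metalloproteinase inhibitor that binds to matrix, had levels of 14.50 and 12.78 and a ratio of −1.71 ± 0.25, lower than that of any of the 10 elastic fibre genes. It stood at −1.25 with median centring relative to all genes. A2m, a broad protease trap, was at −1.03 ± 0.28. Its ratio was −0.44, short of 2-fold, without a filter on dim probes, and −1.64 with the scanner software's log ratio. Serping1 was at −0.34 ± 0.21. Serpina1d (0.23 ± 0.21) and Serpina1e (0.21 ± 0.34), near-identical copies that a probe may not tell apart, and Timp1 (0.08 ± 0.20) were highest.

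**Figure D5:**
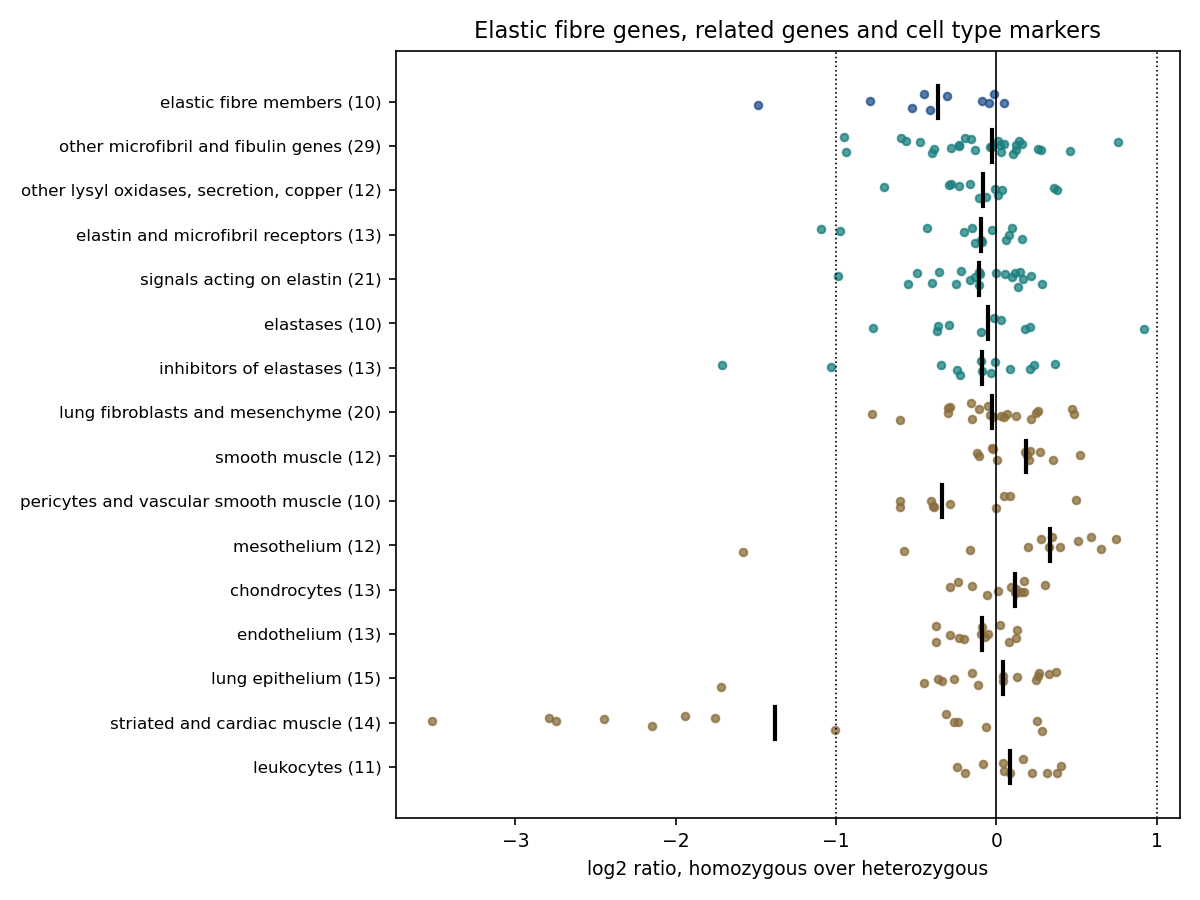
Log2 ratio with loess (horizontal axis) of every detected gene in the elastic fibre list (blue), 6 lists of related genes (teal) and 9 lists of cell type markers (brown), with black bars at list medians, dotted lines at 2-fold and the number of detected genes in brackets. The elastic fibre median of −0.36 is close to that of pericyte markers (−0.34), while striated and cardiac muscle markers spread down to −3.52. With median centring relative to all genes, the elastic fibre median was −0.12, that of pericyte markers −0.0088 and that of cartilage markers −0.06.

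Markers of cells that secrete elastic fibres did not all take the direction of the members with loess. Fibroblast and mesenchyme markers had a median of −0.03 over 20 genes, 11 of them below 0, from Dpt (−0.77 ± 0.22) to Col1a2 (0.48 ± 0.34). Their summed level was 16.64 in the heterozygous and 16.44 in the homozygous channel. Smooth muscle markers had a median of 0.18, with 4 of 12 below 0, from Hhip (−0.12 ± 0.20) to Cnn1 (0.52 ± 0.21), and summed levels of 15.76 and 15.95. Pericyte and vascular smooth muscle markers had a median of −0.34, with 7 of 10 below 0 and summed levels of 14.98 and 14.74. They ran from Cspg4 (−0.60 ± 0.21, 3 probes from −0.67 to 0.05) to Gucy1b1 (0.50 ± 0.21, 3 probes from −0.08 to 0.60). Endothelial markers had a median of −0.09, with 9 of 13 below 0, from Kdr (−0.38 ± 0.21) to Tie1 (0.13 ± 0.20), and summed levels of 17.15 and 16.90. Cartilage markers had a median of 0.12, with 4 of 13 below 0, from Cnmd (−0.29 ± 0.21) to Matn3 (0.30 ± 0.21), and summed levels of 12.97 and 13.04. With median centring relative to all genes, the medians were 0.13 for mesenchyme, 0.52 for smooth muscle, −0.0088 for pericytes, 0.26 for endothelium and −0.06 for cartilage.

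Of cells outside those sources, striated and cardiac muscle markers had the lowest median, −1.38, with 12 of 14 below 0. At least 2-fold lower were 8 of 14, against 1.88% of all genes. These were Myl7 (−3.52), Csrp3 (−2.79), Tnni3 (−2.74), Tnnt2 (−2.45), Tnni1 (−2.15), Myl4 (−1.94), Tnnc1 (−1.75) and Myh6. Others of the list were not, such as Myh7 (−0.32 ± 0.21), Actc1 (−0.07 ± 0.20) and Acta1 (0.25 ± 0.21), named after their values were seen. Levels of the 14 genes ran from 6.63 to 14.58 in the heterozygous and from 6.91 to 13.42 in the homozygous channel, with summed levels of 15.75 and 14.48. Mesothelial markers had a median of 0.34, with 3 of 12 below 0 and Msln at least 2-fold lower (−1.58 ± 0.25). Their summed levels, 15.62 and 15.27, went the other way from the median, and the brightest of them, Krt19, had levels of 14.61 and 14.03. Lung epithelial markers had a median of 0.04, with 7 of 15 below 0 and Sftpb at least 2-fold lower (−1.72 ± 0.26), and summed levels of 18.34 and 18.38. The brightest of them, Sftpc, had levels of 17.09 and 17.41. Its ratio ran from −0.31 to 0.33 over the alternatives other than median centring, so the direction of the sum depends on the processing. Leukocyte markers had a median of 0.09, with 3 of 11 below 0, from Cd14 (−0.24 ± 0.21) to Cd68 (0.41 ± 0.21), and summed levels of 14.38 and 14.54. With median centring relative to all genes, the muscle median was −1.36, the mesothelial 0.63, the epithelial 0.32 and the leukocyte 0.14. The part that the muscle, pericyte or other marker levels have in the ratios of Fbln2, Eln and the fibrillins was not tested.

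Over the whole array, the share of the 43379 mouse spots well above background was 69.0% in the heterozygous and 75.6% in the homozygous channel. Repeated spots of a probe had an SD of 0.058 in the log2 ratio. Past 2-fold, 398 genes were lower and 122 higher with loess, against 302 and 724 with median centring and 1143 and 593 with the scanner software's log ratio.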

How the data were processed

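Both deposited scanner files are identical copies of 1 array, read once. Deposited values include the mean intensity of each spot and its local background on a linear scale, per the file headers. The log ratio is the log10 of red over green processed intensity, which the software background-subtracted, detrended and dye-normalized (linear and LOWESS) before deposit, per the file headers. The submitters' processing notes name Agilent Feature Extraction 9.5.3.1. In the authors' deposited series matrix stands each sample's processed intensity times 1.68 with a floor of 15 (medians 139.8 heterozygous, 138.8 homozygous), found by comparison with the scanner values, and the reason for the factor is unknown.

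Here, mean signals were corrected by normexp (offset 50) with the local median background and loess-normalized in limma 3.58.1 under R 4.3.3, with weight 0 for control spots. Controls and 169 outlier spots were then dropped, and 0 spots were saturated. Probes needed over a 0.5 share of spots well above background in either channel, and the median of such probes gave the gene's value. Names came from a RefSeq gene table (GRCm38.p6), by accession for 24375 probes, by symbol for 6301 and by synonym for 2426, and 8072 kept the file's name. Combined errors of 2 genes are the root of the summed squares. With 1 sample per group no test was possible. Genes were counted at 1.5-fold and 2-fold. Named were the 10 members, Foxj1, and of each other role list all genes past 2-fold with the 3 lowest and 3 highest measured in both channels. Of each marker list, genes past 2-fold were named, or the lowest and highest. Members and lists were chosen with earlier results of these data known. The lists share 3 genes. The path was run on simulated data with known changes in bright genes only. That run covers neither dim genes nor the confounding of dye and genotype. The number of arrays limits the precision. In all, 9 alternatives were run in Python 3.11.15 with pandas 2.3.3.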

Additional observations from a re-analysis of the deposited data

How the results depend on the processing

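With median centring in place of loess, the median of the 10 elastic fibre genes was 0.10, 4 lay below 0 (37.0% of all genes), 1 was at least 1.5-fold lower (6.31% of all genes), 3 were at least 1.5-fold higher (22.7%) and 0 were at least 2-fold lower (1.43%). This alternative leaves out the correction that depends on intensity. Of 90 single member ratios under the 9 alternatives, 80 moved by no more than the scanner error. The other 10 were 8 with median centring and those of Mfap4 with the scanner software's log ratio and the series matrix (−0.47 in both). Many of the 80 could hardly move, since 8 of the 10 members had 1 measured probe. Filter and probe-summary settings mostly left those at their main value, and the series matrix repeated the scanner software's log ratio. Under the 8 alternatives other than median centring, the median of the 10 ran from −0.44 to −0.36. The filter and probe-summary settings all gave the main median again. Counts of genes at least 2-fold lower and higher were 773 and 221 with an offset of 0 and 1139 and 457 with the series matrix. Fbln5 and Mfap5 are the members limited by signal over background. No paired analysis was possible because each group is 1 lung and the result comes from no test.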
